A study of Mus musculus with 36 samples.

Results

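Genes of glycolysis and of the hypoxia response were followed through RNA-seq of the mouse forelimb. The set holds 31 listed genes, found by their symbols among the 50833 genes of the count table, in 3 roles. Glucose and lactate transport is represented by 2 genes (Slc2a1 and Slc16a3), the glycolytic pathway by 15 enzyme genes (Hk1, Hk2, Gpi1, Pfkl, Pfkm, Pfkp, Aldoa, Aldoc, Tpi1, Gapdh, Pgam1, Eno1, Eno2, Pkm and Ldha), and the wider response to low oxygen by 14 genes (Egln1, Egln3, Vegfa, Adm, Car9, Pdk1, Bnip3, Ddit4, Ndrg1, P4ha1, P4ha2, Kdm3a, Mxi1 and Ankrd37). Aldoa has 2 gene models with that symbol, and the one with more counts was used. Embryos of strain B6CBAF1 at stage E12.5 were used, and the distal forelimb (future digits) and proximal forelimb (future arm) of each were taken apart. The genotypes were the wild type (WT) and 5 alleles that lack CTCF binding sites (CBS) of the Hoxd cluster. Del(CBS1) is named for the first site. The alleles Del(CBS1-2) and Del(CBS1-3) are named for sites up to the one in their name, as are Del(CBS1-4) and Del(CBS1-5). With 3 libraries in each tissue and genotype there were 36 libraries in 12 groups. The labels do not say whether a mutant embryo was homozygous, and they give no litter, clone or line for an allele.

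Glycolysis splits glucose into pyruvate, and lactate dehydrogenase turns pyruvate into lactate so that the pathway can run without oxygen. When oxygen is scarce, the alpha subunits of the hypoxia-inducible factors (HIF) escape hydroxylation by the Egln enzymes and degradation through the von Hippel-Lindau protein, pair with Arnt, bind a short DNA word in the control regions of their targets and raise transcription. Targets include glucose transporters, most glycolytic enzymes, the angiogenic factor Vegfa, the collagen prolyl hydroxylases and Egln3 itself, which closes a feedback loop. In the limb, HIF is known for its role in cartilage, a tissue without vessels, where growth plate cells need it to survive.

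Libraries held 11062069 to 17727891 counts (median 14069935). Replicates of every group differed by more than sampling noise, with a chi-square per degree of freedom of 2.66 to 21.2. In WT the tissue labels were borne out by limb genes: Hoxd13, a digit gene, stood at 1024 ± 103 CPM (mean ± SD, n = 3 here and below) in distal and 54.1 ± 31.2 in proximal tissue, and Hoxa11, a forearm gene, at 33.8 ± 20.8 and 172 ± 7.97. CPM are counts relative to the library total, scaled by TMM over all 36 libraries. All 11 limb mesenchyme markers examined had counts in both tissues.

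A form of the core that HIF binds is ACGTG, which reads CACGT on the opposite strand, and only this form was searched. These 5 letters were searched on both strands in the 250 bases before the RefSeq start of each gene (GRCm38.p6, the build of the deposited files), and both were counted where they overlap in CACGTG. A member with several starts was read at the one nearest the 5′ end of its gene model. Of the 30 members that matched the table, all but Ndrg1, 14 (46.7%) held at least 1 match. The share was 16.6% of 27025 genes at the first start listed, and 16.6% of all 32851 starts. A match is a description of the letters and was not tied to binding here. Shown are 5 promoters of members called between the tissues of WT below, 5′ to 3′ on the strand of the gene and ending at the base before the start. P4ha2, Pkm, Mxi1, Hk1 and Aldoa, which were called in all 6 genotypes, are not shown. They hold 1, 0, 0, 0 and 0 matches at the start used. Capitals mark every match on either strand. Egln3 (chr12:54203875-54204124, minus strand), P4ha1 (chr10:59323046-59323295, plus strand) and Bnip3 (chr7:138909507-138909756, minus strand) were lower in distal WT tissue and hold 1, 1 and 2 matches, Hk2 (chr6:82774455-82774704, minus strand) was higher and holds 2, and Eno2 (chr6:124769674-124769923, minus strand) was lower and holds none.
Egln3: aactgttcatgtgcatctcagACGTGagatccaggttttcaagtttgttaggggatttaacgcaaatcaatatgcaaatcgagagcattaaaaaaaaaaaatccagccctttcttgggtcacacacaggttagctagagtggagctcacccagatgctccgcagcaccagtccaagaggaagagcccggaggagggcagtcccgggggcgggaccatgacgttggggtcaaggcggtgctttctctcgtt
P4ha1: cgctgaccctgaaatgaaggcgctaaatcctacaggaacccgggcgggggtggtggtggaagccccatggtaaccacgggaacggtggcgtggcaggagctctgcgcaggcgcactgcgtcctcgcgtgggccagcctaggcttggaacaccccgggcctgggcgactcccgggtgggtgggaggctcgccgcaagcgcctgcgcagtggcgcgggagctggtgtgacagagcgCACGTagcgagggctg
Bnip3: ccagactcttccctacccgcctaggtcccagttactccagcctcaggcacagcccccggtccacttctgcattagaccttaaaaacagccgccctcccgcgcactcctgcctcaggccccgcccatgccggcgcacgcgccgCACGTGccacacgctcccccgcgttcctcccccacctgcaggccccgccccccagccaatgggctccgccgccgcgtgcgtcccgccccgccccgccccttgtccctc
Hk2: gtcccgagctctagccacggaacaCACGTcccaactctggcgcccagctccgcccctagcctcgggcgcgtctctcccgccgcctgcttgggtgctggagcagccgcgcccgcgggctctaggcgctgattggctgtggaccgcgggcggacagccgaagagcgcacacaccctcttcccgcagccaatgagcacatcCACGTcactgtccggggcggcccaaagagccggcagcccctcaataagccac
Eno2: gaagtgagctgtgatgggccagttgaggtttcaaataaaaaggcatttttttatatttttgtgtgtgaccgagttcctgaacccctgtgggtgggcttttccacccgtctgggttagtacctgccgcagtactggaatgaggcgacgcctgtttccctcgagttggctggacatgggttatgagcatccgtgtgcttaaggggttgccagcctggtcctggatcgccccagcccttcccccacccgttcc

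Lower and higher members both held the word. It was present in 3 of the 6 matched members that were lower in distal tissue in at least 5 of 6 genotypes, in 1 of the 4 that were higher in at least 5, and in 10 of the other 20. These counts depend on the start chosen. Pkm and Mxi1 among the higher members, Aldoa among the lower and Vegfa among the others held the word only at starts that were not used.

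The members spanned a wide range of levels in WT. FPKM, in which fragments are divided by gene length and library size, were used to compare genes with each other. The pyruvate kinase gene Pkm was the highest, at 282 ± 11.3 FPKM in distal and 225 ± 12.2 in proximal tissue. Ldha, the muscle-type lactate dehydrogenase, followed at 248 ± 29.1 and 208 ± 27.8 FPKM. Triosephosphate isomerase Tpi1 (175 ± 19.6 and 170 ± 15.0 FPKM) and aldolase Aldoa (159 ± 15.3 and 193 ± 16.6 FPKM) exchanged ranks between the tissues, and their ranges of mean ± SD overlapped in both. Gpi1, glucose phosphate isomerase, was the fifth, at 64.2 ± 5.87 and 62.8 ± 5.83 FPKM. At the lower end in distal tissue were the vasodilator peptide gene Adm (0.313 ± 0.133 FPKM), the membrane carbonic anhydrase Car9 (0.353 ± 0.157), the brain-type aldolase Aldoc (1.43 ± 0.220), Egln3 (1.46 ± 0.155) and the stress-responsive Ndrg1 (2.13 ± 0.488). Adm and Car9 overlapped each other. The lowest in proximal tissue were Car9 (0.362 ± 0.321 FPKM), Adm (0.554 ± 0.256), Aldoc (1.59 ± 0.343), Pfkp (2.68 ± 0.474) and Eno2 (3.23 ± 0.0927). Gapdh, Ndrg1 and Egln3 (3.39 ± 0.602 FPKM) came next, and the mean of Eno2 lay within the spread of Egln3.

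**Figure D1:**
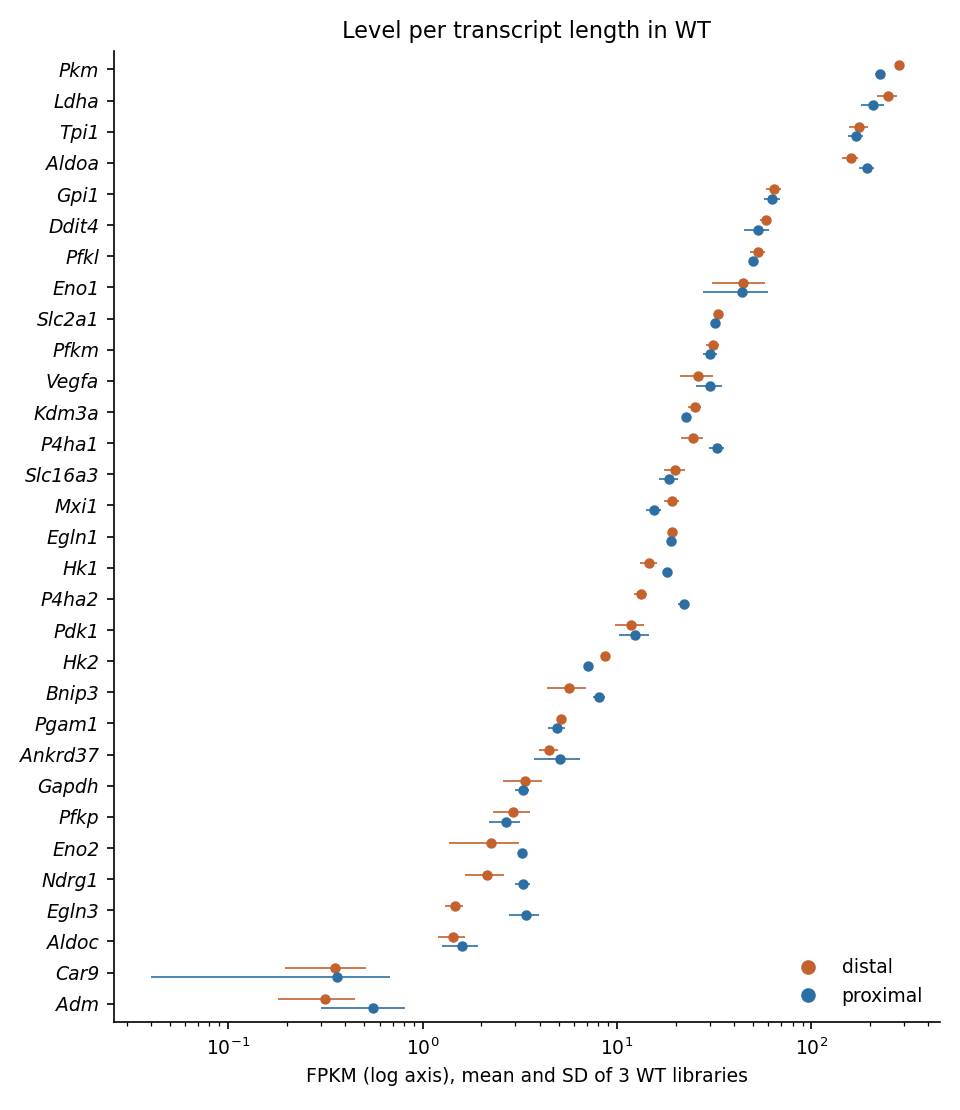
Level of each of the 31 members in WT, as FPKM on a log axis. Points are means and bars SD of 3 libraries, in orange for distal and blue for proximal tissue. Pkm, Ldha, Tpi1 and Aldoa lie above 150 FPKM in both tissues, and Adm and Car9 below 1.

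Gapdh, a glycolytic enzyme often used as a reference gene, was listed at only 3.36 ± 0.753 FPKM in distal and 3.27 ± 0.272 in proximal WT tissue. Reads of the length used here often fit several places in such a gene family. Of the 1371 windows of 50 bases in its longest annotated transcript, 82.5% occur without a mismatch in transcripts of other genes, 222 of them. The shares were 72.2% for Eno1, 62.4% for Bnip3, 41.5% for Pgam1, 34.4% for Pkm, 25.3% for Gpi1, 17.1% for Pfkp, 16.6% for Ldha, 14.6% for Ndrg1 and 13.5% for Aldoa. The sources used here do not say how reads with several matches were counted, so the levels of these genes are uncertain and may be too low. For 12 members, among them Egln3, P4ha1, P4ha2, Hk2 and Kdm3a, no window is shared. Pairs on opposite strands that overlap, such as Slc16a3 with Csnk1d, Pfkm with Senp1, Pfkp with Pitrm1 and Ankrd37 with Ufsp2, carry a further uncertainty, since the use of strand in counting is not stated either. Overlaps on the same strand cannot be told apart by strand, such as Pkm with Gm49759 (3888 bases) and Pfkm with Gm26513 (2490 bases).

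In WT, 8 of the 31 members were lower and 3 higher in distal than in proximal tissue. A gene was called where its edgeR quasi-likelihood p, adjusted by Benjamini-Hochberg over all genes tested, was under 0.05. Among all 14918 genes tested 30.7% were called, 17.1% as lower and 13.6% as higher, so that the members' share of 35.5% was near the background. The members' median log2 fold change was -0.01, against 0.00 over all genes. The lower members were 5 genes of the wider hypoxia response (Egln3, P4ha2, P4ha1, Bnip3 and Ndrg1) and 3 enzymes (Hk1, Aldoa and Eno2), and the higher ones were 2 enzymes (Pkm and Hk2) and Mxi1. In bulk tissue, fewer cells of a type and less RNA per cell cannot be told apart.

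Egln3, the HIF hydroxylase that is itself a HIF target, had the largest difference. Its levels were 5.06, 5.62 and 6.35 CPM in the 3 distal and 10.8, 15.4 and 13.9 CPM in the 3 proximal WT libraries. Every proximal library lay above every distal one, and the level was 2.36-fold lower in distal tissue (log2 fold change -1.24, SE 0.18, edgeR adjusted p = 0.00097). The genes of the collagen prolyl hydroxylases, which stabilise the collagen triple helix, went the same way. P4ha2 was read at 41.9, 44.4 and 38.3 CPM in distal and 72.6, 67.4 and 61.8 CPM in proximal libraries (log2 fold change -0.70, SE 0.09, edgeR adjusted p = 0.00043). P4ha1 was read at 115, 111 and 92.4 CPM in the distal and 156, 144 and 126 CPM in the proximal libraries (log2 fold change -0.42, SE 0.10, edgeR adjusted p = 0.0148). The tissues did not overlap for either gene, and the difference in P4ha2 was 1.62-fold.

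Bnip3, a mitochondrial protein of mitophagy and cell death, stood at 14.3, 15.9 and 11.7 CPM in distal and 22.9, 19.7 and 20.4 CPM in proximal WT libraries (log2 fold change -0.59, SE 0.14, edgeR adjusted p = 0.0106). Ndrg1 stood at 10.04, 6.53 and 6.98 CPM in distal and 13.3, 11.5 and 12.1 CPM in proximal libraries (log2 fold change -0.65, SE 0.19, edgeR adjusted p = 0.0276). For Bnip3 and Ndrg1 too, all distal libraries lay below all proximal ones. The call of Ndrg1 was lost without any of 4 single libraries (distal WT 2 or 3, proximal WT 1 or 3), with an edgeR adjusted p of up to 0.0911, and that of P4ha1 without proximal WT 1 (0.0568).

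Hexokinases trap glucose in the cell, and 2 of their genes went opposite ways. Hk1, the widely expressed form, was read at 88.3, 73.9 and 83.2 CPM in distal and 101, 105 and 101 CPM in proximal WT libraries (log2 fold change -0.33, SE 0.07, edgeR adjusted p = 0.00771). Hk2, the inducible form, was read at 67.0, 70.5 and 72.6 CPM in distal and 58.3, 57.3 and 59.6 CPM in proximal libraries (log2 fold change 0.26, SE 0.06, edgeR adjusted p = 0.0110). Neither pair of groups overlapped, and both differences were under 1.3-fold. Pkm was higher in distal tissue, with 800, 726 and 769 CPM against 670, 609 and 613 CPM (log2 fold change 0.28, SE 0.06, edgeR adjusted p = 0.00769). Mxi1, an antagonist of Myc, was also higher, with 58.5, 57.0 and 64.5 CPM against 49.6, 51.7 and 43.8 CPM (log2 fold change 0.31, SE 0.08, edgeR adjusted p = 0.0194). All distal libraries of both genes lay above all proximal ones, and the call of Mxi1 was lost without distal WT 3 or proximal WT 3 (edgeR adjusted p up to 0.0836).

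Aldoa and Eno2, the neuronal enolase, were the other lower members in WT. Aldoa stood at 370, 303 and 334 CPM in distal and 459, 384 and 400 CPM in proximal libraries (log2 fold change -0.31, SE 0.09, edgeR adjusted p = 0.0292). Eno2 stood at 4.92, 6.66 and 8.97 CPM in distal and 10.6, 11.04 and 10.8 CPM in proximal libraries (log2 fold change -0.66, SE 0.21, edgeR adjusted p = 0.0447). The tissues of both genes lay apart, but Aldoa lost its call without any of 4 of the 6 libraries (distal WT 2 or 3, proximal WT 1 or 3) and Eno2 without any but distal WT 3 (edgeR adjusted p up to 0.0979 and 0.108). The other 20 members were not called in WT. Among them Slc2a1, the basal glucose transporter, had 131, 122 and 121 CPM in distal and 115, 136 and 124 CPM in proximal libraries, and Egln1, the main HIF hydroxylase, had 101, 98.2 and 105 CPM against 106, 103 and 96.9 CPM. These libraries overlapped, with log2 fold changes of -0.01 (SE 0.07) and -0.01 (SE 0.06). Vegfa had 116, 148 and 92.5 CPM in distal and 170, 129 and 117 CPM in proximal libraries (log2 fold change -0.22, SE 0.18, edgeR adjusted p = 0.404).

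**Figure D2:**
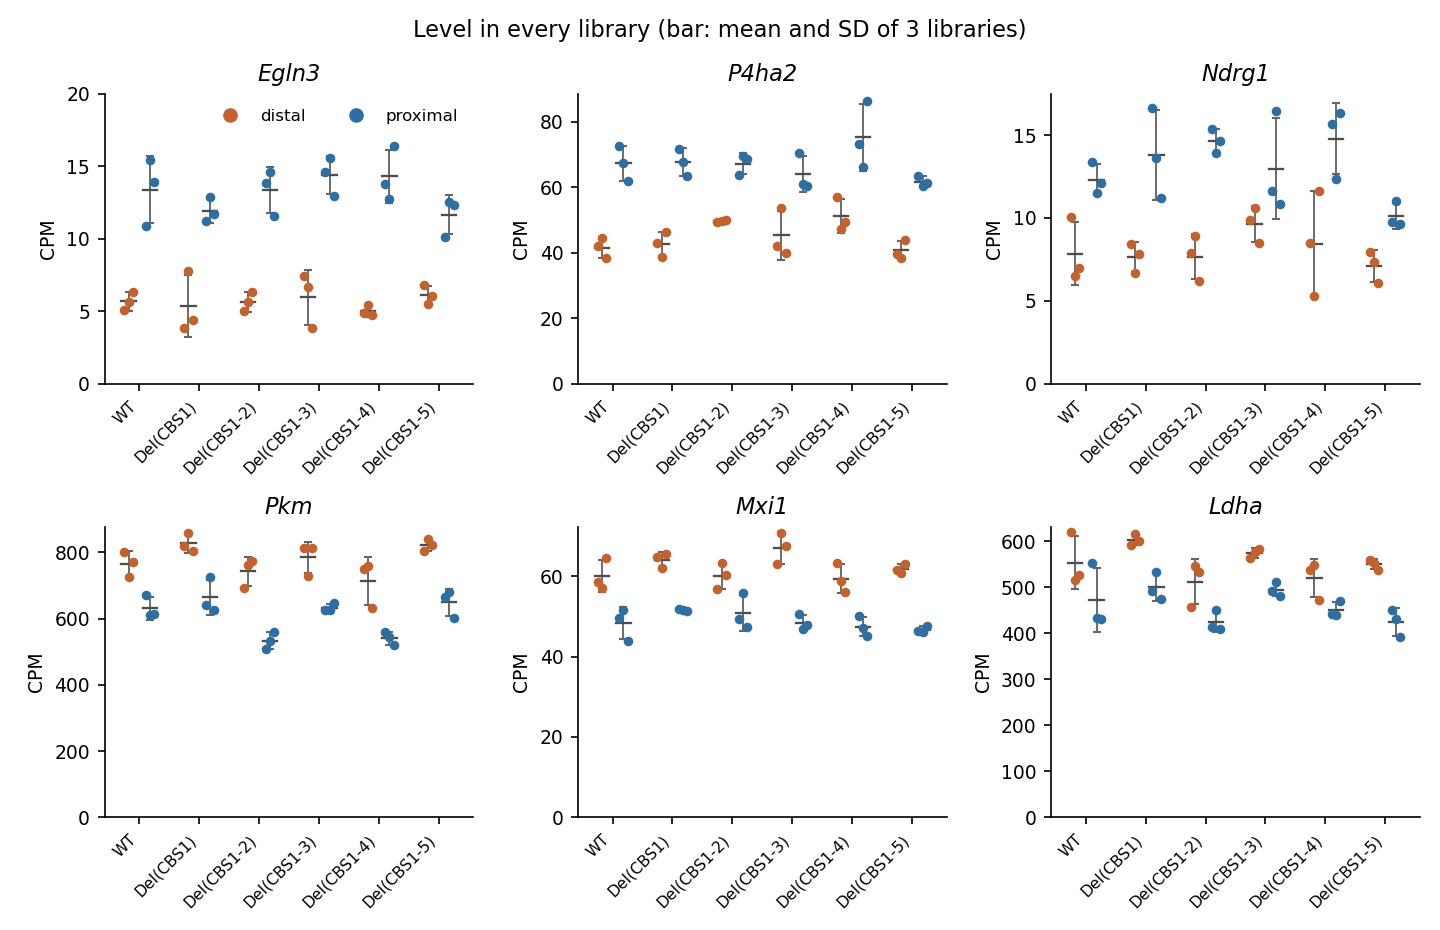
CPM in every library for 6 members, with orange points for distal and blue points for proximal libraries. Bars give the mean and SD of 3 libraries, and every axis starts at 0. Proximal Egln3, P4ha2 and Ndrg1 lie above distal in each genotype, while Pkm, Mxi1 and Ldha are higher in distal tissue.

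The tissue difference was measured again in embryos of each mutant genotype. In Del(CBS1), 5 members were higher and 9 lower of 30 tested, with 36.1% of all genes called (16.5% higher, 19.7% lower). In Del(CBS1-2) the numbers were 8 and 9 of 30, with 50.7% of all genes called (24.8% higher, 25.9% lower). In Del(CBS1-3) they were 7 and 7 of 30, with 34.2% of all genes (15.9% and 18.3%). In Del(CBS1-4) they were 6 and 7 of 31, with 38.6% (17.8% and 20.8%), and in Del(CBS1-5) 8 and 9 of 30, with 40.4% (19.4% and 21%). The members' shares were 46.7%, 56.7%, 46.7%, 41.9% and 56.7%, each above the share of all genes in the same comparison, a difference that was not tested. By role, 2 to 6 of the 15 enzymes were higher and 3 lower in each genotype, while of the wider hypoxia response 1 to 3 were higher and 4 to 6 lower. The median log2 fold change of the enzymes was 0.04 to 0.18 and that of the hypoxia response -0.34 to -0.19. The count of Del(CBS1-5) fell from 17 to 11 without proximal library 2, and that of WT from 11 to 7 without proximal WT 3. Adm was the member left out by the count filter in 4 genotypes.

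Egln3, P4ha2, Mxi1 and Pkm, called in every genotype, are protein-coding genes on 4 chromosomes of mm10, at chr12:54178980-54203860, chr11:54100094-54131662, chr19:53310517-53375810 and chr9:59656367-59679375 in that order. Directions were shared across genotypes. Over the 6 genotypes 20 members were called at least once, 10 always as lower and 10 always as higher, and none was called in opposite directions. Lower in all 6 genotypes were Egln3, P4ha2, P4ha1, Eno2, Hk1 and Aldoa, with Ndrg1 in 5, Bnip3 and Vegfa in 3 and Pdk1 in 2. Higher in all 6 were Pkm and Mxi1, with Ldha and Pfkp in 5, Hk2 in 4, Pfkl and Kdm3a in 3, Eno1 and Ddit4 in 2 and Tpi1 in 1. Calls of Egln3, P4ha2 and Pkm held in all 6 genotypes without each library in turn. Other calls were less stable: Mxi1 and Eno2 kept theirs in 4 of 6 genotypes, Aldoa, Hk1 and P4ha1 in 3 of 6, Ldha in 4 of 5, Ndrg1 and Pfkp in 2 of 5, Hk2 in 1 of 4, Pfkl in 3 of 3, Bnip3 and Vegfa in 2 of 3, Kdm3a in 1 of 3, Pdk1, Eno1 and Ddit4 in 1 of 2, and Tpi1 in 0 of 1. Eno2 also lost its call with limma on FPKM in 4 of 6 genotypes (adjusted p of 0.0586 to 0.191). A replicate block, which pairs the tissues of an embryo, kept every call and added others. In mutants these were Tpi1 and Vegfa in Del(CBS1-2) (edgeR adjusted p = 0.0193 and 0.0102), Ndrg1, Pdk1, Ddit4 and Bnip3 in Del(CBS1-3) (0.0225, 0.00997, 0.00458 and 0.0176), Ddit4 and Bnip3 in Del(CBS1-4) (0.0433 and 0.0352), and Gpi1 in Del(CBS1-5) (0.0422). With the block Ndrg1 was thus called in all 6 genotypes. The tests of the 6 genotypes use separate embryos, so each of them measures the difference anew.

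**Figure D3:**
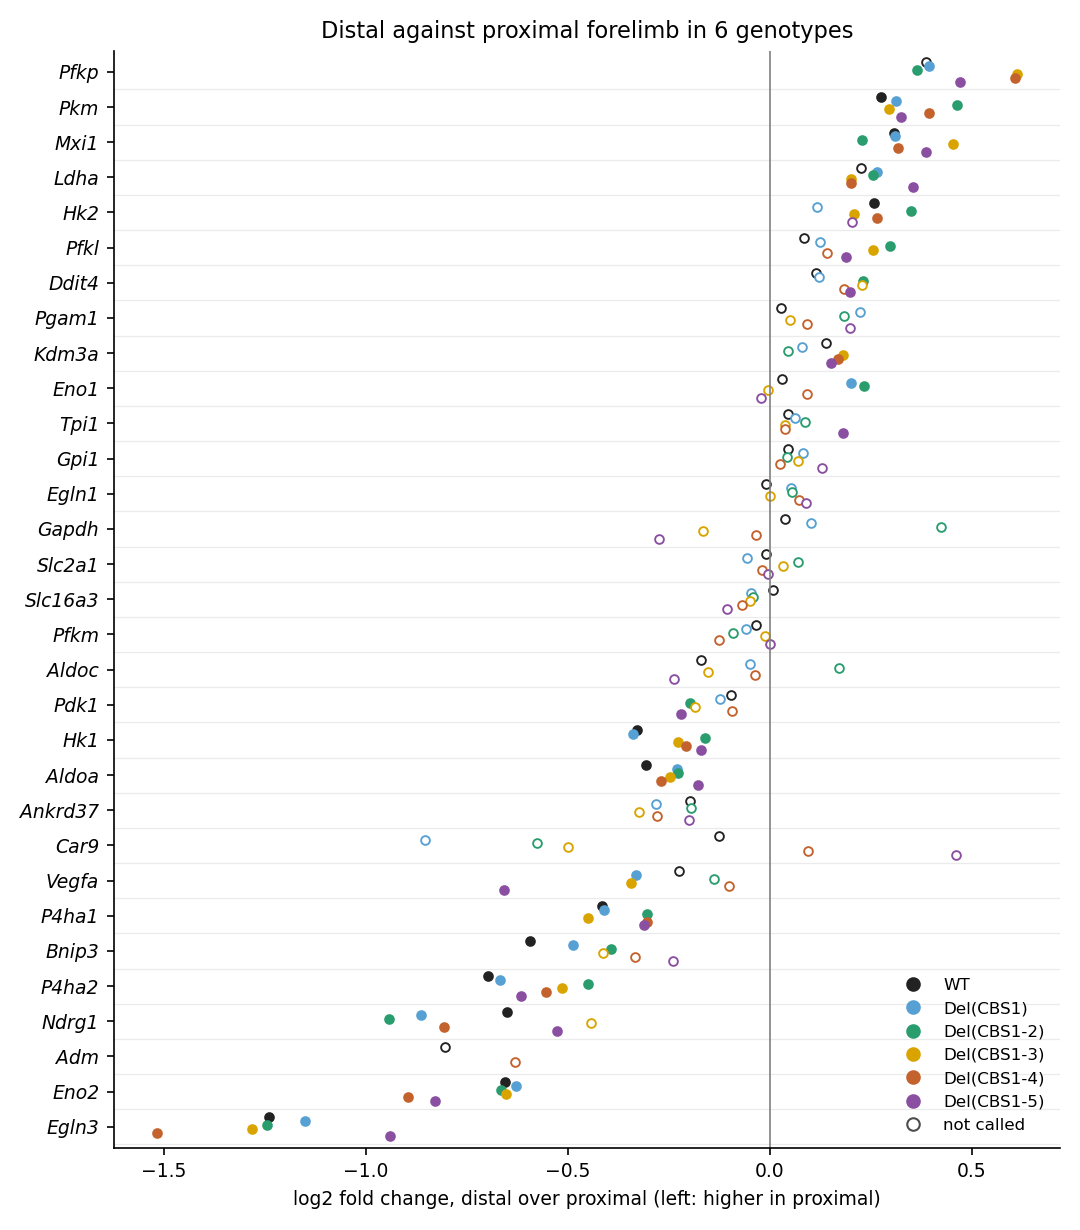
Log2 fold change of distal over proximal tissue for the 31 members, ordered by their mean. Each colour is a genotype, filled points are called at an adjusted p under 0.05, and open points are not. Egln3 lies between -1.52 and -0.94 in all 6 genotypes, and Pfkp, Pkm and Mxi1 lie to the right of 0.

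Egln3 separated the tissues in every embryo. Distal libraries read 3.84, 7.78 and 4.43 CPM in Del(CBS1), 5.00, 5.61 and 6.34 CPM in Del(CBS1-2), 7.41, 6.67 and 3.84 CPM in Del(CBS1-3), 4.85, 5.41 and 4.72 CPM in Del(CBS1-4), and 6.78, 5.53 and 6.08 CPM in Del(CBS1-5). Proximal libraries of the same genotypes read 11.2, 12.9 and 11.7 CPM, 13.9, 14.6 and 11.5 CPM, 14.6, 15.6 and 13.0 CPM, 13.7, 12.8 and 16.4 CPM, and 10.1, 12.55 and 12.3 CPM. With WT included, the highest of 18 distal libraries (7.78 CPM) lay under the lowest of 18 proximal ones (10.1 CPM). The log2 fold change ran from -1.52 in Del(CBS1-4) to -0.94 in Del(CBS1-5), with SE of 0.14 to 0.23 and edgeR adjusted p of 4.83e-06 to 0.00229.

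P4ha2 and Mxi1 were the other members whose 18 distal libraries lay apart from all 18 proximal ones, as was so for 13.2% of 16292 genes. P4ha2 ranged from 38.3 to 57.1 CPM in distal (median 44.2) and from 60.3 to 86.2 CPM in proximal tissue (median 66.7). Its log2 fold change was between -0.70 and -0.45 over the genotypes, with edgeR adjusted p of 1.62e-05 to 0.00719. Mxi1 ranged from 55.99 to 70.6 CPM in distal (median 62.4) and from 43.8 to 55.86 CPM in proximal tissue (median 48.6). Its log2 fold change was between 0.23 and 0.45, with edgeR adjusted p of 0.000212 to 0.0194. The gap between the tissues for Mxi1 was thus narrow, and its lowest distal and highest proximal library came from different genotypes.

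The other members that were lower in distal tissue did not separate all 18 distal from all 18 proximal libraries. P4ha1 ranged from 89.4 to 134 CPM in distal (median 110) and from 108 to 174 CPM in proximal tissue (median 143), with log2 fold changes of -0.45 to -0.30. Ndrg1 ranged from 5.27 to 11.6 CPM (median 7.92) and from 9.63 to 16.6 CPM (median 12.8), with log2 fold changes of -0.94 to -0.44, and it missed the call in Del(CBS1-3) without the replicate block (edgeR adjusted p = 0.0982). The distal and proximal ranges of both genes overlap when embryos of all genotypes are set together. Eno2 ranged from 4.82 to 9.43 CPM (median 6.51) and from 7.68 to 14.7 CPM (median 10.7), and its log2 fold changes of -0.89 to -0.63 were the largest among the enzymes. Aldoa (284 to 394 CPM against 353 to 459 CPM) and Hk1 (73.9 to 98.8 CPM against 95.4 to 113 CPM) fell by less, with log2 fold changes of -0.31 to -0.18 and -0.34 to -0.16. The log2 fold change of Vegfa ran from -0.66 in Del(CBS1-5) to -0.10 in Del(CBS1-4), and its level was lower in distal tissue in 16 of 18 embryos.

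Among the members higher in distal tissue, Pkm ranged from 630 to 859 CPM in distal (median 787) and from 509 to 725 CPM in proximal libraries (median 619). Its log2 fold change was between 0.28 and 0.46, with edgeR adjusted p of 2.62e-06 to 0.00769. Ldha ranged from 456 to 620 CPM (median 551) and from 392 to 554 CPM (median 451), with log2 fold changes of 0.20 to 0.35. Ldha was not called in WT, where embryo 1 stood above the others in both tissues (620 against 515 and 527 CPM in distal, 554 against 433 and 431 CPM in proximal libraries). In a fit that paired the tissues of each embryo by a replicate block, Ldha was called in WT too (edgeR adjusted p = 0.00158), as was Pfkp (0.0475). Pfkp, the platelet-type phosphofructokinase, had log2 fold changes of 0.36 to 0.61, above those of Pkm in all genotypes but Del(CBS1-2) (0.36 against 0.46), at 10.6 to 16.0 CPM in distal and 7.33 to 11.6 CPM in proximal tissue. Pfkl, the liver type, was called as higher in 3 genotypes, and Pfkm, the muscle type, in none.

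By embryo, 8 members were lower in distal tissue in 18 of 18 (Aldoa, Eno2, Hk1, Bnip3, Egln3, Ndrg1, P4ha1 and P4ha2) and 5 were higher in 18 of 18 (Ldha, Pfkp, Pkm, Kdm3a and Mxi1). Of 16292 genes above the count filter, 15.8% were lower and 15.4% higher (or equal) in all 18, so that a uniform direction was common in this tissue comparison. The 11 members with no call in any genotype in the main edgeR fit were Slc2a1, Slc16a3, Gpi1, Pfkm, Pgam1, Gapdh, Aldoc, Adm, Ankrd37, Car9 and Egln1. They hold both transporters and the main HIF hydroxylase. Their log2 fold changes had SE of up to 0.53 for Car9 and 0.47 for Adm, which were read at 0.54 to 3.09 CPM and 0.07 to 1.68 CPM. Other fits called some of the 11. The replicate block added Gpi1 in Del(CBS1-5). Gapdh was called as higher in distal Del(CBS1-2) by limma on FPKM (adjusted p = 0.0175) and by edgeR without the count filter (adjusted p = 0.0432). Adm was called as lower in distal Del(CBS1-5) by edgeR without that filter (adjusted p = 0.0226). Both were also called by edgeR with certain single libraries left out.

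Other genes of the same pathways were read beside the members. The shares called of all genes in WT (17.1% lower, 13.6% higher) are the background of the counts that follow, and no list was tested against it. Of 47 tested genes of a longer hypoxia list, 21 were lower and 3 higher in distal WT tissue (51.1% called), with a median log2 fold change of -0.23. Over the 6 genotypes 20 to 22 were lower and 3 to 7 higher. The most reduced in WT were Igfbp1, an IGF-binding protein with too few distal counts for a fold (0.0439 CPM against 1.81 CPM), and the collagen cross-linking enzyme Lox (8.49 against 80.9 CPM, log2 fold change -3.26, SE 0.17). Tfrc, the transferrin receptor (log2 fold change 0.54, SE 0.08), and the circadian repressor Nfil3 (0.46, SE 0.14) were the most raised. Of 19 other glycolysis genes tested in WT, 5 were higher and 4 lower (47.4% called). The glucose transporter Slc2a3 rose from 134 CPM in the proximal to 245 CPM in the distal part (log2 fold change 0.87, SE 0.09), and Bpgm, which makes bisphosphoglycerate, from 57.8 to 77.0 CPM (0.41, SE 0.07). Pgam2, the muscle phosphoglycerate mutase, was read at 4.23 and 22.7 CPM (-2.43, SE 0.18), and the hexokinase-like Hkdc1 at 5.39 and 13.9 CPM (-1.37, SE 0.21).

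Of 15 genes of the HIF machinery itself tested in WT, 1 was higher (Rbx1, a subunit of the von Hippel-Lindau ligase, log2 fold change 0.19, SE 0.05) and 0 were lower (6.67% called). Over the 6 genotypes 1 to 4 were higher and 0 to 5 lower. The lower ones included the HIF alpha subunits Epas1 and Hif3a in Del(CBS1-2) (log2 fold change -0.26 in both, SE 0.10 and 0.06) and in Del(CBS1-4) (-0.31 and -0.23, SE 0.09 and 0.07), and Hif1an and Arnt in Del(CBS1-5) (-0.23 and -0.16, SE 0.05 in both). Of 21 genes of mitochondrial pyruvate use and the citric acid cycle, 6 were higher and 1 lower in distal WT tissue (33.3% called). They included citrate synthase Cs (325 against 258 CPM, log2 fold change 0.33, SE 0.06), the succinate ligase subunit Suclg2 (0.31, SE 0.09) and, as the lower one, pyruvate carboxylase Pcx (-0.55, SE 0.12). Of 13 amino acid and stress genes regulated by Atf4 (46.2% called), 5 were higher, with asparagine synthetase Asns (0.59, SE 0.08) and the serine synthesis gene Psat1 (0.47, SE 0.06) leading, and 1 was lower (Vldlr, -0.77, SE 0.14). Among 12 immediate early and heat shock genes, Ier2 was higher (0.29, SE 0.10) and Egr1 (-2.24, SE 0.17) and Jun (-0.91, SE 0.11) were lower.

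Markers of other cells differed between the tissues along with the members. All 15 skeletal muscle markers were lower in distal tissue in each genotype, and their summed level was 23.2 to 176 CPM over 18 distal and 2185 to 3956 CPM over 18 proximal libraries. Summed levels of 14 cartilage markers were 1958 to 3643 and 3816 to 7536 CPM, those of the tendon and connective tissue list 764 to 1543 and 3090 to 5950 CPM, and those of the nerve and Schwann cell list 71.6 to 106 and 195 to 233 CPM. None of these ranges overlap. The endothelial sum was 448 to 535 CPM in distal and 472 to 639 CPM in proximal libraries, macrophage markers summed to 55.5 to 97.4 and 65.6 to 136 CPM, and ectoderm markers to 508 to 753 and 413 to 661 CPM. Erythroid markers summed to 2063 to 6216 and 1578 to 3647 CPM, and 12 proliferation genes, all higher in distal tissue in each genotype, to 4013 to 4613 and 2373 to 3200 CPM. No listed marker with counts was at 0 in all libraries of any of the 12 groups. The part of these cells in the tissue differences of the members was not tested.

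The mutants were set against WT in each tissue, since the study asks how the loss of CTCF sites alters transcription. In distal tissue, 2 of 31 members were called, both in Del(CBS1-2), where 10.5% of 15361 genes were called (4.47% higher, 5.99% lower, and 26.6% at an unadjusted p under 0.05). Hk1 was read at 88.3, 73.9 and 83.2 CPM in WT and 95.9, 98.8 and 94.4 CPM in Del(CBS1-2) (log2 fold change 0.21, 95% interval 0.09 to 0.33, SE 0.06, edgeR adjusted p = 0.0346). Kdm3a, a histone H3 lysine demethylase, was read at 187, 193 and 168 CPM in WT and 153, 165 and 164 CPM in Del(CBS1-2) (log2 fold change -0.21, 95% interval -0.31 to -0.10, SE 0.05, edgeR adjusted p = 0.0204). All mutant libraries lay above WT for Hk1 and below WT for Kdm3a. At least 1 of the 2 calls was lost without each of the 6 libraries in turn, both without distal WT 2, Del(CBS1-2) 1 or Del(CBS1-2) 2, and both with limma on FPKM (adjusted p = 0.0736 and 0.0832). In the same libraries muscle markers summed to 43.5 to 45.4 CPM in WT and 90.1 to 176 CPM in Del(CBS1-2), and cartilage markers to 2278 to 2642 and 3440 to 3643 CPM. Their part in the difference was not tested. By the level of Xist, all 3 embryos of Del(CBS1-2) and 2 of 3 of WT were female, and the fit did not adjust for sex. Among the other alleles, 1 of 3 embryos was female in Del(CBS1) and in Del(CBS1-3), and 2 of 3 in Del(CBS1-4) and in Del(CBS1-5). Of the other pathway lists, HIF machinery had 2 higher genes of 15 in distal Del(CBS1-2), Arnt2 (0.23, SE 0.05) and Elob (0.19, SE 0.06). The longer hypoxia list had 3 higher and 2 lower of 46, led by Tpbg (0.28, SE 0.07) and Kdm4b (0.22, SE 0.05) and by Tfrc (-0.47, SE 0.09) and Ero1l (-0.33, SE 0.09). Mdh2 of the citric acid cycle was higher (0.13, SE 0.04) and Slc7a11, a cystine transporter among the Atf4 targets, lower (-0.47, SE 0.12). Of the immediate early and heat shock list Egr1 was higher (0.68, SE 0.20) and Hsph1 lower (-0.26, SE 0.08), and no gene of these lists or of the other glycolysis genes was called by edgeR in the other 9 comparisons with WT.

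In the other 4 alleles 0 members were called by edgeR in distal tissue. The shares of all genes called there were 0.0325% in Del(CBS1), 0.00651% in Del(CBS1-3), 0.0846% in Del(CBS1-4) and 0.0651% in Del(CBS1-5), and the members with an unadjusted p under 0.05 numbered 2, 4, 2 and 10, against 9.69%, 13.9%, 15.3% and 13.1% of all genes. DESeq2 and limma on FPKM called 0 there too, while edgeR without the count filter called 1, 1, 3 and 5 members. Those 5 in Del(CBS1-5) were Vegfa (adjusted p = 3.27e-18), Eno1 (5.58e-08), Pdk1 (0.000262), Slc16a3 (0.000352) and P4ha1 (0.0411). The log2 fold change of Vegfa was -0.61 without the filter and -0.60 with it. Its smaller p thus went with a smaller estimate of spread and does not measure the spread among embryos. The 10 members of Del(CBS1-5) with an unadjusted p under 0.05 were all at lower levels than WT. Among them Vegfa was read at 68.0, 64.6 and 105 CPM against 116, 148 and 92.5 CPM in WT (log2 fold change -0.60, SE 0.17, edgeR adjusted p = 0.188), and the libraries overlapped. Pdk1, which blocks the entry of pyruvate into the citric acid cycle, was read at 71.9, 68.4 and 76.0 CPM against 102, 92.0 and 73.8 CPM (-0.32, SE 0.09, edgeR adjusted p = 0.188). In Del(CBS1-5), 3 members were called without distal WT 3 and 1 without distal Del(CBS1-5) 3.

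In proximal tissue 0 members were called in any allele by edgeR. Of 15813 genes, 0.0443% were called in Del(CBS1), 0.721% in Del(CBS1-2), 0.0696% in Del(CBS1-3), 0% in Del(CBS1-4) and 0.0696% in Del(CBS1-5). Members with an unadjusted p under 0.05 numbered 4, 8, 3, 2 and 6, against 7.1%, 19.5%, 13.1%, 14.1% and 6.48% of all genes. The lowest adjusted p was that of Pkm in Del(CBS1-2), with 509, 533 and 558 CPM against 670, 609 and 613 CPM in WT (log2 fold change -0.24, SE 0.06, edgeR adjusted p = 0.0689). DESeq2 called Pkm there and in Del(CBS1-4) (adjusted p = 0.00804 and 0.0453) and no other member, and limma on FPKM called 0. Without the count filter edgeR called 1, 4, 1, 1 and 3 members, Pkm in Del(CBS1-2) and Del(CBS1-4) among them (adjusted p = 0.000828 and 0.00304). In proximal Del(CBS1-5) 28 of the 31 members were below WT, with a median log2 fold change of -0.15 against 0.00 over all genes, and none passed the test. The WT group includes embryo 1, the highest in both tissues for 12 of the 31 members. Erythroid markers summed to 2001 to 2618 CPM in proximal WT and 3255 to 3647 CPM in proximal Del(CBS1-5), while muscle and cartilage sums overlapped. The part of either in the shift of the members was not tested. All 10 mutant comparisons share their WT libraries within a tissue.

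**Figure D4:**
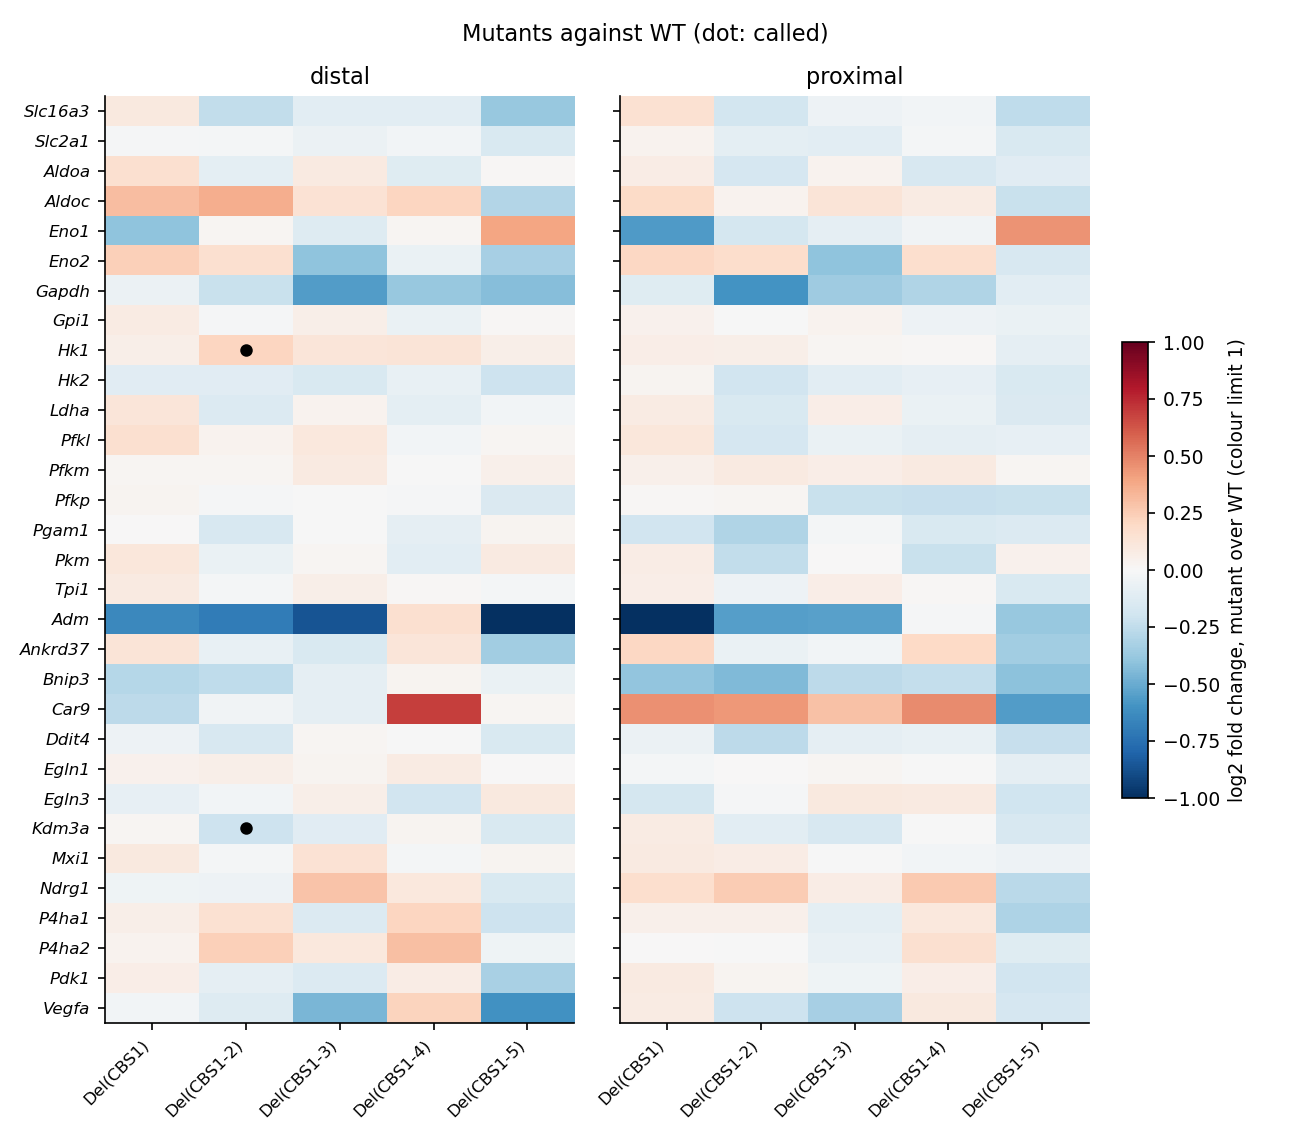
Log2 fold change of each mutant over WT for the 31 members in distal (left) and proximal (right) tissue, with red for higher and blue for lower than WT and colours capped at 1. Black dots mark the 2 calls, Hk1 and Kdm3a in distal Del(CBS1-2). The strongest blue falls on Adm in distal Del(CBS1-5) and proximal Del(CBS1), at -1.31 in both.

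The largest difference from WT was in a gene with few counts. Adm changed by -1.31 (SE 0.57) in distal Del(CBS1-5), where its 3 libraries held 1, 5 and 5 counts against 13, 10 and 6 in WT. Of the 31 members, 22 to 28 in distal and 23 to 28 in proximal tissue differed from WT by less than 0.25 on the log2 scale, and the median SE was 0.09 in each of these 10 comparisons. Whether an allele altered the tissue difference was tested as an interaction in the 36 libraries. The main fit did not pair the 2 tissues of an embryo, and a fit with a block for each embryo called 0 members for each allele. The unpaired edgeR test called 0 members for each of the 5 alleles. Its counts at an unadjusted p under 0.05 were 0 in Del(CBS1), 3 in Del(CBS1-2), 1 in Del(CBS1-3), 0 in Del(CBS1-4) and 0 in Del(CBS1-5), against 2.12%, 11.1%, 3.94%, 6.11% and 5.93% of all genes. DESeq2 and limma on FPKM called 0 as well, and edgeR without the count filter called 1, Vegfa in Del(CBS1-5) (adjusted p = 0.0025). Among all 16292 genes the shares called were 0%, 0.0491%, 0.00614%, 0.0184% and 0%. The smallest p in Del(CBS1-2) was that of Pfkl, with a change of 0.23 (SE 0.09, edgeR adjusted p = 0.295) in the log2 tissue difference. The median SE of these interactions was 0.14 in the unpaired fit.

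Embryos of some genotypes differed in several members at once. In WT, 12 of 31 members (38.7%) had their highest library in embryo 1 in both tissues, among them Ldha, Pkm, Aldoa, Tpi1, Gpi1, Pfkl, Pdk1 and P4ha1, against 12.9% of 16292 genes. In Del(CBS1-2), 13 members (41.9%) were highest in embryo 2 in both tissues, against 11.5% of genes, and in Del(CBS1) and Del(CBS1-3) 9 members (29.0%) were highest in embryo 2, against 14.2% and 17.4%. Ldha, for example, was read at 547 CPM in distal Del(CBS1-2) embryo 2 and at 456 and 532 CPM in the others, and at 450 CPM against 413 and 410 CPM in proximal tissue. In Del(CBS1-4) no embryo was highest for more than 3 members. WT embryo 1 had 14379535 and 12793148 counts, within the range of the other libraries.

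Eno1, the main enolase gene, varied among embryos of the same genotype, and a copy of it varied the other way. This copy, Eno1b, is annotated as protein coding on another chromosome, and its transcript shares 50-base windows with that of Eno1. In WT, Eno1 was read at 91.8, 117 and 167 CPM in distal and 80.9, 115 and 170 CPM in proximal libraries of embryos 1, 2 and 3. Eno1b was read at 18.6, 6.46 and 0 CPM and at 18.4, 7.36 and 0 CPM in the same libraries. The embryo order was the same in both tissues, and the order of Eno1 was the reverse of that of Eno1b.

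The mutant embryos spanned the same range. All 3 embryos of Del(CBS1) had Eno1b at 16.0 to 22.4 CPM and Eno1 at 74.6 to 99.0 CPM, and those of Del(CBS1-2) had Eno1b at 5.44 to 11.7 CPM and Eno1 at 98.7 to 134 CPM. In Del(CBS1-5) Eno1b was at 0 to 0.141 CPM and Eno1 at 147 to 178 CPM. In Del(CBS1-3), embryos 1 and 2 had Eno1b at 17.1 to 22.2 CPM with Eno1 at 82.8 to 91.4 CPM, and embryo 3 had 0 CPM with Eno1 at 171 and 178 CPM. In Del(CBS1-4), embryos 1 and 2 had Eno1b at 6.81 to 10.1 CPM with Eno1 at 108 to 117 CPM, and embryo 3 had 0 CPM with Eno1 at 149 and 139 CPM. The level thus followed the embryo within the genotypes WT, Del(CBS1-3) and Del(CBS1-4). The log2 fold change of Eno1 from WT was -0.40 (SE 0.21) in distal and -0.57 (SE 0.24) in proximal Del(CBS1), and 0.39 (SE 0.21) and 0.45 (SE 0.24) in Del(CBS1-5), with edgeR adjusted p of 0.433 to 0.784. Without the count filter these 4 differences of Eno1 were called (edgeR adjusted p of 4.55e-15 to 6.46e-08). Their log2 fold changes were close to those above (-0.40, -0.58, 0.39 and 0.44), so the smaller p went with a smaller estimate of spread. Such p do not measure the wide spread of Eno1 among WT embryos. The part of read placement, or of the sequence of an embryo's alleles, in these values was not tested.

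**Figure D5:**
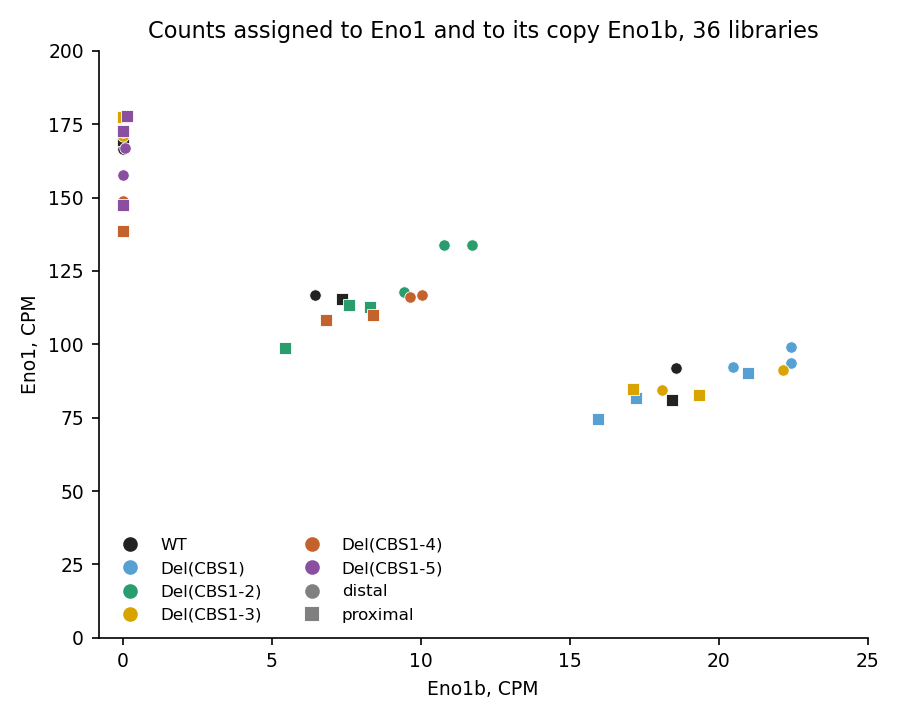
CPM of Eno1 (vertical axis) against CPM of its copy Eno1b (horizontal axis) in the 36 libraries, with circles for distal and squares for proximal tissue and a colour for each genotype. Libraries without Eno1b counts hold Eno1 at 139 to 178 CPM, and those with Eno1b above 15 CPM hold Eno1 at 74.6 to 99.0 CPM.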

How the data were processed

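Distal and proximal forelimbs of individual embryos were made into stranded poly(A) libraries and read as single ends of 50 bases, per the labels' protocols. The authors deposited whole-number read counts per gene and FPKM values from Cufflinks, both per the file headers. Among tools, those authors list STAR 2.7.0 and bedtools 2.27.1, beside Cufflinks 2.2.1 and cutadapt 1.16, with the build mm10, per the submitters' processing notes. The roles of the tools and the counting settings are not stated there. Genes of chromosomes X, Y and M (4222) have FPKM but no counts, so X-linked genes such as Pgk1 were not tested.

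Counts were tested with edgeR 4.0.16 in R 4.3.3 (TMM, filterByExpr, quasi-likelihood F test), the tissues within the 6 libraries of a genotype, mutants against WT within the 18 libraries of a tissue, and the interaction in all 36. Alternatives were DESeq2 1.42.0, RLE scaling, no count filter, limma 3.58.1 on log2(FPKM + 1) or log2(FPKM + 0.1) for genes with an FPKM of at least 1 in 3 libraries, a replicate block, and each library left out. On simulated counts for the WT tissue comparison (14665 genes) the test recovered 59.7% of 1.5-fold and 89.6% of 2-fold changes, with 7 of 172 calls false. For distal Del(CBS1-2) against WT it recovered 77.6% and 94%. Only 67 genes were changed at each of these folds, far fewer than were called between the real tissues. They were drawn from genes above a minimum level, so the rates do not cover members with few counts, such as Adm and Car9.

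Members and other gene lists were chosen with earlier results of these data known. A called member was described with its libraries, up to 6 per comparison and direction by smallest p in WT and in mutants against WT; for the tissue comparison in mutant embryos ranges over libraries are given, with every library for Egln3. Of other lists up to 2 called genes per direction were named in WT. Members picked out in the accounts of uncalled differences, of embryos and of Eno1b were chosen after their values were seen. Same-numbered distal and proximal libraries were taken as the same embryo: their deviations from the group means correlated at 0.235 to 0.731 in all 18 pairs, and the sex read from Xist matched in 18 of 18.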

Additional observations from a re-analysis of the deposited data

How the results depend on the processing

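Of the 88 calls of a member in a comparison, none changed direction under an alternative. All 88 stayed under RLE scaling and the replicate block, 87 without the count filter, 85 with DESeq2 and 68 with limma on FPKM. With the replicate block, members called between the tissues numbered 13 in WT, 14 in Del(CBS1), 19 in Del(CBS1-2), 18 in Del(CBS1-3), 15 in Del(CBS1-4) and 18 in Del(CBS1-5). Limma on FPKM, at both pseudocounts, called 11 between the tissues of Del(CBS1-5) and 0 in distal Del(CBS1-2). Without the count filter, members called against WT in distal tissue were 1 in Del(CBS1), 1 in Del(CBS1-3), 3 in Del(CBS1-4) and 5 in Del(CBS1-5). In proximal tissue they were 1, 4, 1, 1 and 3 from Del(CBS1) to Del(CBS1-5), and the interaction of Del(CBS1-5) had 1. For Eno1, Vegfa and Pkm against WT the log2 fold changes were close to those of the main fit. Their smaller p thus went with smaller estimates of spread, and the cause was not tested. DESeq2 called 1 in proximal Del(CBS1-2) and 1 in proximal Del(CBS1-4). Leaving out each library in turn gave 7 to 11 calls between the tissues in WT, 10 to 14 in Del(CBS1), 15 to 17 in Del(CBS1-2), 10 to 15 in Del(CBS1-3), 9 to 13 in Del(CBS1-4) and 11 to 17 in Del(CBS1-5), 0 to 1 in distal Del(CBS1-2) against WT and 0 to 3 in distal Del(CBS1-5). Between a mutant and WT, 7 of 30 libraries correlated best with their own number. For Del(CBS1-3) every same-numbered pair correlated above 0.1 (0.109 to 0.347 in distal, 0.102 to 0.465 in proximal tissue), for no other allele, and the replicate block called 0 members there, as without it. With 3 libraries a group, simulated 1.5-fold changes were recovered at 59.7% between the WT tissues and 77.6% in distal Del(CBS1-2) against WT. Smaller changes were not simulated, so a missing call does not exclude them. Some smaller differences were called, such as those of Hk1 and Aldoa between the tissues.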
